A study of Mus musculus with 6 samples.

Results

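The genes described here encode the proteins of the mitochondrial ribosome. Members were all protein-coding genes whose symbol begins with Mrpl or Mrps followed by a digit, which gave 78 of the 54532 gene entries listed by the authors. Of these, 49 carry the large-subunit prefix (Mrpl) and 29 the small-subunit prefix (Mrps). The rule itself uses no expression value, although members were chosen with earlier results of these data known.

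RNA was sequenced from RAW264.7 cells, a mouse macrophage line of tumour origin that can also be driven toward osteoclasts. The control cells, Gel/S, were cultured under static conditions with plain GelMA, a gelatin hydrogel carrying methacryloyl groups. The other cells, C/D, were cultured with GelMA/PEDOT:PSS+PLLA/PDA, a hydrogel composite that contains a conducting polymer blend, and received ultrasound at 48 kHz for 5 min. Both groups comprised 3 libraries after 3 d of culture, and the C/D libraries were recognised in the table by column names with the letters US, read as ultrasound, so every direction below rests on that reading. Material and ultrasound changed together, so their effects cannot be told apart, and the labels do not say whether replicates were separate cultures, so p-values measure the spread between these libraries. Because RNA was extracted in bulk, fewer expressing cells and less RNA per cell cannot be told apart.

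The mitochondrial ribosome is built in the mitochondrial matrix from ribosomal RNAs encoded by mitochondrial DNA and from proteins that are all encoded in the nucleus, made in the cytosol and imported. It translates the few messenger RNAs of the mitochondrial genome, whose products are core subunits of the respiratory chain and of ATP synthase. In macrophages the balance of oxidative phosphorylation and glycolysis differs between activation states, and mitoribosomal proteins are needed for the former. Many mitoribosomal proteins have a bacterial counterpart, while others occur only in mitochondria.

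Libraries held 12818831 to 16525699 counts. Of 8 macrophage markers, 7 passed the expression filter, and Mrc1 did not. Csf1r, the receptor for the macrophage growth factor, fell from 616, 507 and 526 FPKM in Gel/S to 396, 379 and 370 FPKM in C/D (log2 fold change -0.48, adjusted p = 0.00751 by edgeR). Lyz2 and Cd14 were lower in all C/D than in all Gel/S libraries without passing (-0.30 and -0.29, adjusted p = 0.0732 and 0.0627 by edgeR). Adgre1 was higher in Gel/S 1 (20.2 FPKM) than in Gel/S 2 and 3 (8.6 and 11.3), and its groups overlapped. Itgam, Cd68 and Ptprc also overlapped between groups, with log2 fold changes of 0.18, 0.02 and -0.21 (adjusted p = 0.229, 0.902 and 0.223 by edgeR). The part of these marker changes in the results below was not tested. Of 14 markers of fibroblasts, epithelium, endothelium, lymphocytes and neutrophils, none had a mean of at least 1 FPKM (fragments per kilobase of gene length, scaled to library size), 4 were at 0 in every library, and their summed level was 0.46 to 1.17 FPKM in Gel/S and 0.268 to 1.09 FPKM in C/D.

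Start-site regions are shown for the 4 members whose change passed the test under every setting tried, Mrps16, Mrpl22, Mrpl58 and Mrps18b, and for Mrpl3, the other member that fell. They were taken from RefSeq (GRCm38.p6) at the transcript start nearest to that of GENCODE M21, from 250 bases before the start to at most 30 bases after it. Capitals mark the letters of 3 motifs known from promoters of mitochondrial and ribosomal genes, searched on both strands: GCGCATGC for NRF1, CCGGAAG for ETS-family factors and AAGATGGC for YY1. Mrps16 was read from chr14:20393605-20393884 (minus strand), Mrpl22 from chr11:58171414-58171690 (plus strand), Mrpl58 from chr11:115403502-115403781 (plus strand), Mrps18b from chr17:35916411-35916690 (minus strand) and Mrpl3 from chr9:105053018-105053268 (plus strand), each written 5′ to 3′ along the gene.
Mrps16: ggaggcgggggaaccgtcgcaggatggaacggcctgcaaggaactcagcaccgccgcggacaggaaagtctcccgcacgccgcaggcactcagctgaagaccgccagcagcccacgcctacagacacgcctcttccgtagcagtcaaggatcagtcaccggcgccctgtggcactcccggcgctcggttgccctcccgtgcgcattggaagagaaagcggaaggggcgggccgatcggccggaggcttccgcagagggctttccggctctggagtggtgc
Mrpl22: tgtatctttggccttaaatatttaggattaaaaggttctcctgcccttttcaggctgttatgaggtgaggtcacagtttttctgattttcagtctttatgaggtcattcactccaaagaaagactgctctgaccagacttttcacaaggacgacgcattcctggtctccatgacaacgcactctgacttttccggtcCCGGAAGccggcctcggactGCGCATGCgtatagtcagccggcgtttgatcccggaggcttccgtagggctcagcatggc
Mrpl58: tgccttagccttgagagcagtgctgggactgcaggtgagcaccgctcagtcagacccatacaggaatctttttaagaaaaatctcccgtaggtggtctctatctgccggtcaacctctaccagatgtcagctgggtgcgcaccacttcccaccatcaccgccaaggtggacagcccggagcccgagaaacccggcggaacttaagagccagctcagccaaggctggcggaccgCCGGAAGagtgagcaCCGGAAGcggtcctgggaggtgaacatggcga
Mrps18b: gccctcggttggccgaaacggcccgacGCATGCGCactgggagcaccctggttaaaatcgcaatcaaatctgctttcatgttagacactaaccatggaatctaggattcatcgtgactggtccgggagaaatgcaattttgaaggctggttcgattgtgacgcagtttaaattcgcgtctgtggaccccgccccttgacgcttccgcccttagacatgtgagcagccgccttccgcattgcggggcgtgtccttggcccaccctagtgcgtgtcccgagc
Mrpl3: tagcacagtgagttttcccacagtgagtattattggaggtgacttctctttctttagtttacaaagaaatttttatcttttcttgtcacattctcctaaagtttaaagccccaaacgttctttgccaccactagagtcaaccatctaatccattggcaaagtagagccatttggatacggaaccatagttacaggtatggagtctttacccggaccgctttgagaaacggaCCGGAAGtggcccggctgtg

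In these windows Mrpl22 held the ETS letters 53 bases and the NRF1 letters 33 bases before its start. Mrpl58 held the ETS letters 17 and 2 bases before the start. Mrps18b, which fell, held the reverse complement of the NRF1 letters 223 bases before its start. Running past its printed end, the reverse complements of the NRF1 and ETS letters also began at bases 29 and 44 after the start. Mrpl3, which also fell, held the ETS letters 19 bases before its start. These positions count from the RefSeq start. The GENCODE start lies 51 bases downstream of it for Mrps18b and 29 bases upstream for Mrpl3. The ETS letters of Mrpl3 therefore follow its GENCODE start. The printed Mrps16 window held none of the 3 motifs. Another RefSeq start of Mrps16 lies 144 bases from the GENCODE start. Its window held the reverse complement of the ETS letters from 74 bases before and from base 25 after that start. Mrps16 is therefore counted with the ETS letters below. Over whole RefSeq windows of 300 bases (250 before to 50 after each listed start), 69 members could be matched. A member or tested gene was counted when any of its windows held the letters, while shares of all windows count each window singly. Member windows nearest to the GENCODE start had a median of 58.3% G and C bases, against 52.7% over all windows. The part of base content in the shares below was not tested. The ETS letters were found for 26 of the matched members (37.7%), against 22.9% of 7933 tested protein-coding genes with a window and 8.86% of all 32851 windows. The YY1 letters were found for 12 members (17.4%), against 6.08% of tested genes and 2.75% of all windows. The NRF1 letters were found for 8 members (11.6%), against 6.72% of tested genes and 2.71% of all windows. The TATA letters TATAAA, searched for comparison, were found for 5 members (7.25%) and 7.84% of tested genes. Matches of different motifs were allowed to overlap, and 38 members (55.1%) held at least 1 of the NRF1, ETS or YY1 letters, against 32.2% of tested genes. Mrpl53, which was not tested, is among them through the ETS letters. Mrpl48 is among them only through ETS letters in a window 25171 bases from its GENCODE start. The median log2 fold change of members was 0.18 with and 0.21 without the ETS letters, 0.16 with and 0.19 without the NRF1 letters, and 0.07 with and 0.20 without the YY1 letters, given as a description with no test.

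Messenger RNAs of the mitochondrial ribosome were mostly somewhat higher in C/D than in Gel/S, by less than 2-fold in every case, with a few members of both subunits going the other way. Of 77 members that reached the expression filter, 17 rose (22.1%), against a background of 13.1% of all 11708 tested genes called higher, a difference that several other fits did not give. The share of members that fell was 2 of 77 (2.60%), against 14% of all tested genes called lower. Together 19 members passed (24.7%), below the 27.1% of all tested genes that passed in either direction. The remaining 58 members did not pass, at an adjusted p of 0.05 by edgeR's quasi-likelihood test with Benjamini-Hochberg adjustment over all tested genes. The median log2 fold change of members, C/D over Gel/S, was 0.20, with a range of -0.63 to 0.51, and the median of all tested genes was 0.01. The fitted change was above 0 for 64 of 77 members (83.1%) and for 50.8% of all tested genes. FPKM of all C/D libraries lay above all Gel/S libraries for 26 members, where 19.1% of all tested genes did so. FPKM of all C/D libraries lay below all Gel/S libraries for 6 members, where 27.1% of all tested genes did so, and 45 members overlapped.

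**Figure D1:**
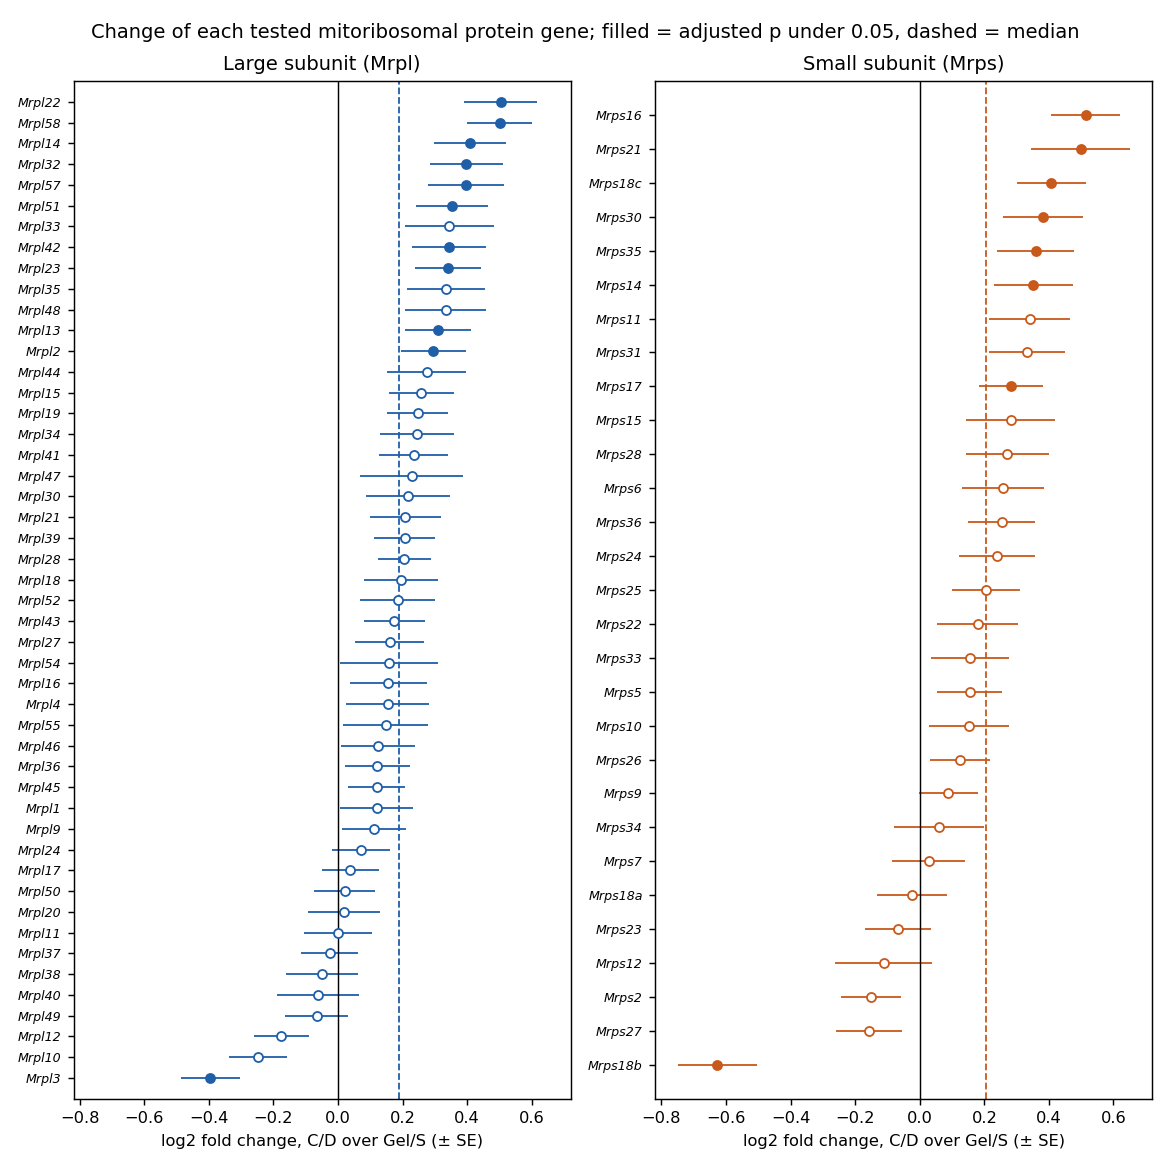
Fitted log2 fold change, C/D over Gel/S, with its standard error for each tested member, large subunit on the left and small subunit on the right. Filled points passed an adjusted p of 0.05, dashed lines are the medians of 0.19 and 0.21, and Mrps18b and Mrpl3 are the filled points left of 0.

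Counts and medians of both subunits were close. Of 48 tested large-subunit members, 10 rose and 1 fell, and their log2 fold changes had a median of 0.19. Of 29 small-subunit members, 7 rose and 1 fell, with a median of 0.21. Cryo-electron microscopy structures place the products of Mrps18a and Mrps30 in the large subunit despite their names and leave Mrps36 out of the ribosome. With those assignments 11 of 50 large-subunit members rose and 1 fell, 6 of 26 small-subunit members rose and 1 fell, and both medians were 0.19. Members with a bacterial counterpart (46 tested) gave 11 risen, 1 fallen and a median of 0.21, and members found only in mitochondria (28 tested) gave 6 risen, 0 fallen and a median of 0.18. Beside that 0, 11 of the 28 (39.3%) had an unadjusted p under 0.05 by edgeR in either direction. The same share was 43.8% for large- and 37.9% for small-subunit members by name, and 41.3% for members with a bacterial counterpart. These shares lay near the 41.1% of all tested genes. The background for the risen and fallen counts is 13.1% of all tested genes called higher and 14% called lower.

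A single control library carried much of the spread among members. Summed FPKM of the large subunit was 1126, 1396 and 1296 in Gel/S 1 to 3 and 1416, 1384 and 1399 in C/D 1 to 3. Summed FPKM of the small subunit was 496, 653 and 600 in Gel/S and 684, 667 and 676 in C/D. Gel/S 1 was thus low for both subunits, Gel/S 2 reached the C/D level for the large subunit, and the groups overlapped for the large but not for the small subunit. As mean ± SD (n = 3), the large subunit stood at 1273 ± 136 in Gel/S and 1400 ± 15.8 in C/D, and the small subunit at 583 ± 80.0 and 676 ± 8.79. Gel/S 1 was the lowest of all 6 libraries for 61 of 77 members (79.2%), against 25.9% of all tested genes. Gel/S 2 was the lowest library for 0 members. The median deviation of members from their mean log2 CPM (counts scaled to library size) was -0.30, 0.07 and -0.06 in Gel/S 1 to 3 and 0.12, 0.10 and 0.11 in C/D 1 to 3. The share of counts from mitochondrially encoded genes ran alongside, at 5.59% in Gel/S 1, 9.02% in Gel/S 2, 7.41% in Gel/S 3 and 9.17% to 10.4% in C/D, and its part in the result was not tested.

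**Figure D2:**
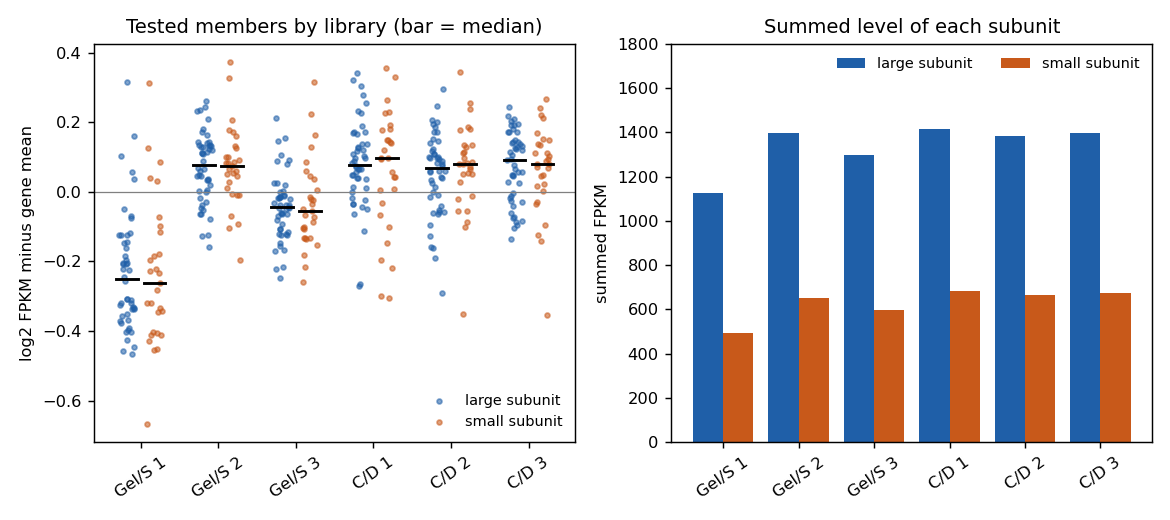
Left, log2 FPKM of each tested member minus that gene's mean over the 6 libraries, by library and subunit, with bars at the medians. Right, summed FPKM of each subunit by library, where Gel/S 1 is the lowest at 1126 and 496.

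The number of calls depended on which library was left out, while the sign of the median did not. Without Gel/S 1, 12 members rose and 3 fell, and the median was 0.09. Without Gel/S 2, 34 rose and 2 fell, and the median was 0.28. Leaving out Gel/S 3 left 6 risen members, and leaving out C/D 1, C/D 2 or C/D 3 left 4 each, with medians of 0.19 to 0.20. The share of risen members did not exceed that of all tested genes in every fit. Without Gel/S 3 the shares were 7.79% of members and 7.84% of all tested genes, and without C/D 1, C/D 2 or C/D 3 they were 5.19% of members against 7.59%, 7.84% and 8.38%. Without Gel/S 1 they were 15.6% against 13.5%, and without Gel/S 2 they were 44.2% against 17.2%. Over 15 alternative fits, leave-outs included, the share of risen members exceeded that of all tested genes in 8 and did not in 7. In each of the 15 fits the share of members that fell was below that of all tested genes, and the share with a change above 0 was higher. Of the 19 called members, 4 passed in each of these leave-outs and under each other setting: Mrps16, Mrpl22 and Mrpl58, which rose, and Mrps18b, which fell. Lost calls given below for single members are those of the leave-outs. Every other risen member also lost its call by limma, another fit, on log2(TPM + 1). All of these but Mrps18c lost it on log2(FPKM + 1) and log2(FPKM + 0.1) as well.

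**Figure D3:**
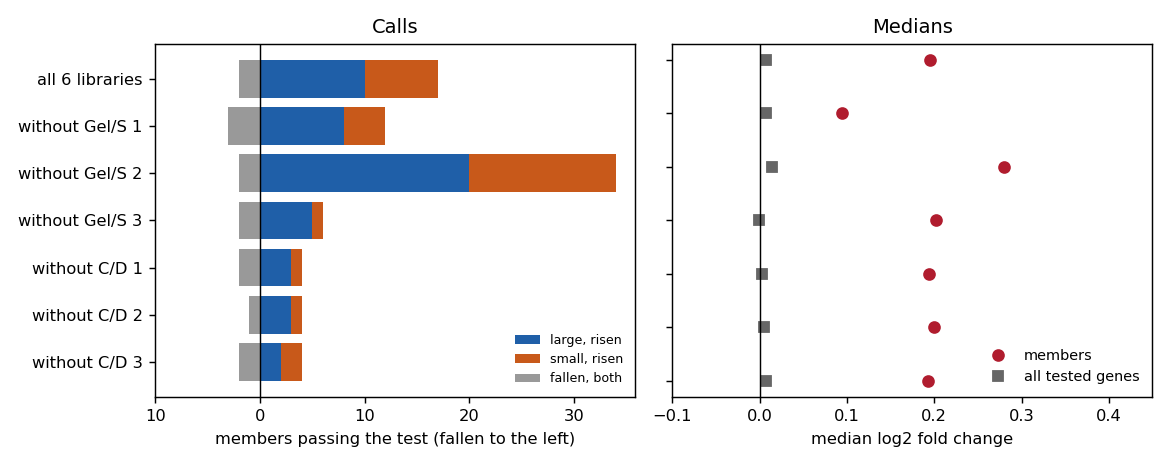
Left, number of large- and small-subunit members that rose (to the right) and of members that fell (to the left), with all 6 libraries and without each library in turn. Right, the median log2 fold change of members and of all tested genes in the same fits, where members range from 0.09 without Gel/S 1 to 0.28 without Gel/S 2 and all genes stay near 0.

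Mrps16, the counterpart of bacterial S16 in the body of the small subunit, lies on chromosome 14 from 20389304 to 20393634. Its level was 10.6, 13.1 and 12 FPKM in Gel/S 1 to 3 and 15.5, 17.8 and 16.3 FPKM in C/D 1 to 3. All C/D libraries lay above all Gel/S libraries, with a log2 fold change of 0.51 ± 0.11 (SE, adjusted p = 0.0051 by edgeR).

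Mrpl22 encodes a protein that lines the exit tunnel through which the nascent chain leaves the large subunit, and lies on chromosome 11 from 58171661 to 58179565. Its level was 24.1, 30.8 and 26.8 FPKM in Gel/S and 39.8, 35.9 and 36.9 FPKM in C/D. The groups did not overlap, and the log2 fold change was 0.50 ± 0.11 (SE, adjusted p = 0.00762 by edgeR).

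Mrpl58, also known as Ict1, encodes a peptidyl-tRNA hydrolase that is built into the large subunit and can release chains from stalled ribosomes. It lies on chromosome 11 from 115403752 to 115412674. Its level was 8.26, 9.66 and 9.08 FPKM in Gel/S and 13.0, 12.2 and 11.9 FPKM in C/D. Every C/D library exceeded every Gel/S library, and the log2 fold change was 0.50 ± 0.10 (SE, adjusted p = 0.00423 by edgeR).

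Mrps21, the counterpart of bacterial S21, had the highest level of all members, a mean of 160 FPKM over the 6 libraries. Its level was 98.6, 164 and 143 FPKM in Gel/S and 197, 172 and 188 FPKM in C/D. The groups did not overlap, but Gel/S 1 stood well below the other 2 controls. The log2 fold change was 0.50 ± 0.15 (SE, adjusted p = 0.0304 by edgeR), and the call was lost without Gel/S 3 or any 1 of the C/D libraries, with an adjusted p of up to 0.121.

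Among the other large-subunit members that rose were Mrpl14, a protein of the face toward the small subunit, Mrpl32, which is processed on import by the m-AAA protease, and Mrpl57, a protein found only in mitochondria. Mrpl14 had 52.0, 64.1 and 69.0 FPKM in Gel/S and 83.4, 75.3 and 80.4 FPKM in C/D (log2 fold change 0.41). Mrpl32 had 6.37, 8.15 and 6.90 FPKM in Gel/S and 8.32, 9.55 and 9.53 FPKM in C/D (0.40). Mrpl57 had 16.0, 21.5 and 21.1 FPKM in Gel/S and 24, 27 and 24 FPKM in C/D (0.40). In all 3 the groups did not overlap, with adjusted p from 0.0181 to 0.0268 by edgeR. Each of these calls was lost when 1 of 2 or 3 particular libraries was left out: C/D 1 or C/D 3 for Mrpl14 (adjusted p up to 0.0798), Gel/S 3, C/D 2 or C/D 3 for Mrpl32 (up to 0.0959) and any C/D library for Mrpl57 (up to 0.121).

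The other members that rose fall outside the rule for named genes and are named because they passed, so they were chosen after their values were seen. They were Mrpl51, Mrpl42, Mrpl23, Mrpl13 and Mrpl2 of the large subunit, with log2 fold changes of 0.30 to 0.35, and Mrps35, Mrps14 and Mrps17 of the small subunit, with 0.28 to 0.36. Their adjusted p lay between 0.028 and 0.0493 by edgeR, close to the threshold, and each lost its call when any 1 of the C/D libraries was left out. All but Mrpl23 also lost it without Gel/S 3, and Mrpl13, Mrpl2, Mrps14, Mrps17 and Mrps35 lost it without Gel/S 1. The highest adjusted p over the leave-outs lay between 0.0925 for Mrpl23 and 0.166 for Mrps17.

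Mrps30, whose product sits in the large subunit, also rose, from 4.77, 6.27 and 5.86 FPKM in Gel/S to 8.07, 6.53 and 6.81 FPKM in C/D. The log2 fold change was 0.38 ± 0.12 (SE, adjusted p = 0.0395 by edgeR), and the call was lost in 4 of 6 leave-outs, without Gel/S 3 or any C/D library (adjusted p up to 0.169).

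The 3 relatives of bacterial S18 went different ways. Mrps18c and Mrps18b encode proteins of the small subunit, while the product of Mrps18a occupies the large subunit. Mrps18b lies on chromosome 17 from 35910379 to 35916389 and had 6.98, 7.27 and 6.99 FPKM in Gel/S and 4.56, 4.41 and 4.39 FPKM in C/D. All C/D libraries were below all Gel/S libraries, with little spread inside either group, and the log2 fold change of -0.63 ± 0.12 (SE, adjusted p = 0.00348 by edgeR) was the lowest of all members. Antisense Gm16279 overlaps 30.5% of its exon bases, and the sources used here do not state strandedness, so reads of the 2 genes may not be separable.

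Mrps18c had 20.8, 23.0 and 20.2 FPKM in Gel/S and 28.4, 28.5 and 25.6 FPKM in C/D. It was higher in every C/D library, with a log2 fold change of 0.41 ± 0.11 (SE, adjusted p = 0.0149 by edgeR), a call lost when Gel/S 3, C/D 1 or C/D 2 was left out (adjusted p up to 0.0736). Another same-strand entry, Gm43511, overlaps 23.2% of the exon bases of Mrps18c. Mrps18a had 10.8, 13.8 and 13.0 FPKM in Gel/S and 12.3, 11.7 and 11.9 FPKM in C/D, overlapping groups with a log2 fold change of -0.02 (adjusted p = 0.889 by edgeR). The FPKM ratio of Mrps18c to Mrps18b was 2.97, 3.17 and 2.89 in Gel/S and 6.22, 6.48 and 5.82 in C/D. That ratio, taken within each library and so free of library scaling, differed by 1.04 on the log2 scale between the groups, against a pooled SD of 0.07. It was chosen after the values were seen and is given with no test.

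**Figure D4:**
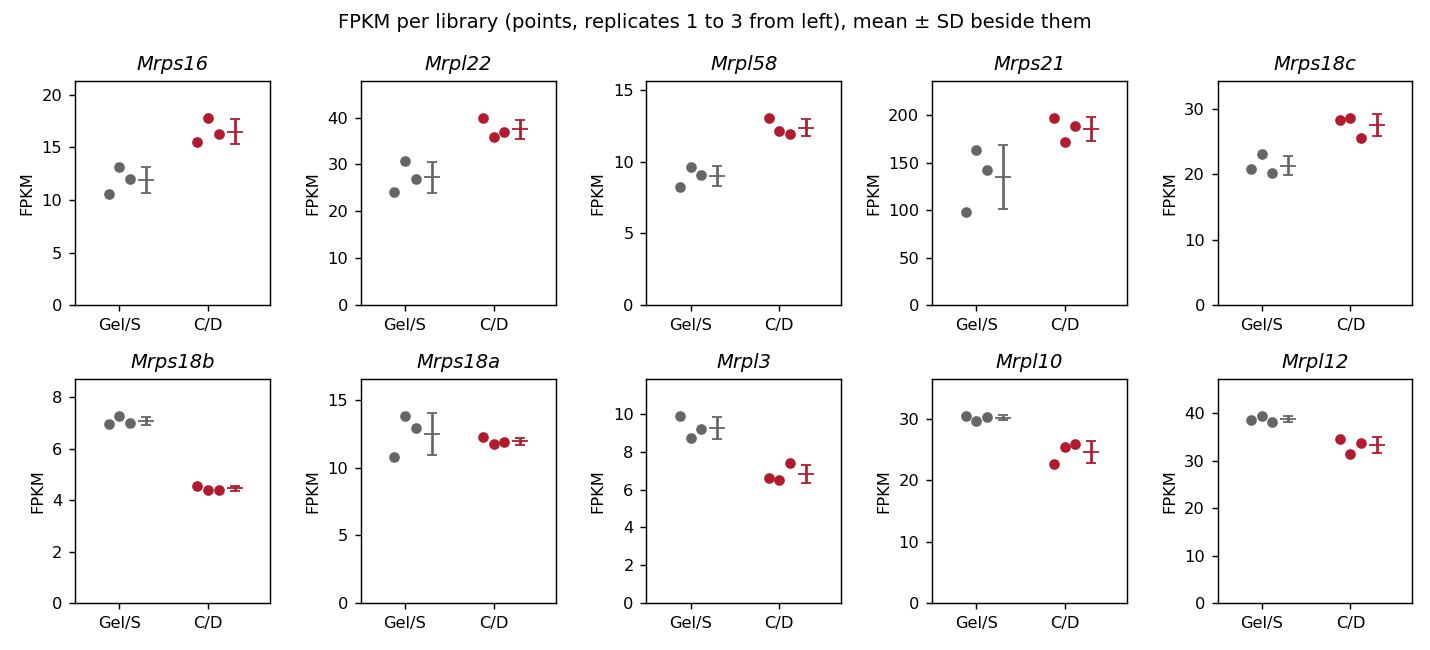
FPKM of 10 members in each library (points, replicates 1 to 3 from left) with mean ± SD beside them, Gel/S in grey and C/D in red, each axis starting at 0. Mrps16, Mrpl22, Mrpl58, Mrps21 and Mrps18c show no overlap with C/D above, Mrps18b, Mrpl3, Mrpl10 and Mrpl12 no overlap with C/D below, and Mrps18a overlaps.

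Mrpl3, the counterpart of bacterial L3 near the peptidyl transferase centre, was the large-subunit member that fell. It lies on chromosome 9 from 105053239 to 105079888. Its level was 9.89, 8.71 and 9.22 FPKM in Gel/S and 6.63, 6.51 and 7.40 FPKM in C/D, without overlap. The log2 fold change was -0.40 ± 0.09 (SE, adjusted p = 0.0084 by edgeR), and the adjusted p was 0.0537 without C/D 2.

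Proteins of the stalk, which recruits translation factors to the large subunit, were not among the members that rose. Mrpl10, which holds the stalk dimers, had 30.4, 29.7 and 30.3 FPKM in Gel/S and 22.6, 25.5 and 25.9 FPKM in C/D (log2 fold change -0.25, adjusted p = 0.0582 by edgeR). Mrpl12, which forms those dimers, had 38.5, 39.4 and 38.2 FPKM in Gel/S and 34.7, 31.5 and 33.8 FPKM in C/D (-0.17, adjusted p = 0.144). Neither passed, although all C/D libraries lay below all Gel/S libraries for both. Mrpl10 did pass as lower in 6 of 15 alternative fits, with adjusted p of 0.0353 to 0.0471: limma on FPKM with either pseudocount, on TPM or after length correction, and edgeR with no filter or without Gel/S 1. It also passed in the authors' deposited table (adjusted p = 0.0472). Mrpl12 passed by limma on TPM (adjusted p = 0.0416). Mrpl11, at the base of the stalk, had 14.9, 18.7 and 18 FPKM in Gel/S and 17.1, 16.3 and 16.9 FPKM in C/D, with overlapping groups and an adjusted p of 0.996 by edgeR.

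Other members of known function did not pass either. Mrpl45, which anchors the ribosome to the inner membrane, had 22.8, 25.3 and 25.7 FPKM in Gel/S and 26.5, 26.3 and 25 FPKM in C/D (log2 fold change 0.12). Mrps12, the decoding-site protein related to bacterial S12, had 12.7, 16.7 and 13.1 FPKM in Gel/S and 10.8, 13.2 and 14.3 FPKM in C/D (-0.11). Mrps34, a small-subunit protein found only in mitochondria, had 9.61, 7.69 and 9.17 FPKM in Gel/S and 7.56, 10.5 and 8.63 FPKM in C/D (0.06), and 2 other genes together overlap 77.8% of its exon bases. All 3 showed overlapping groups, and the sign of the Mrpl45 and Mrps34 values turned under TPM scaling. Mrps36, now known as a component of the 2-oxoglutarate dehydrogenase complex, had 24.7, 29.4 and 28.4 FPKM in Gel/S and 29.7, 33.4 and 32.5 FPKM in C/D (0.25, adjusted p = 0.0853 by edgeR).

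Levels per gene length differed widely between members, and ranks by FPKM went partly with gene length. Members under 1500 bases had a median of 33.6 FPKM and those of 3000 bases or more one of 9.17 FPKM. The tested large-subunit genes had a median of 22.2 FPKM and the small-subunit genes one of 14 FPKM, with members from 3.55 to 160 FPKM. After Mrps21, the highest large-subunit genes were Mrpl34 (74.0 FPKM), Mrpl14 (70.7) and Mrpl52 (70.7), and the next small-subunit genes were Mrps15 (45.5) and Mrps23 (36.1). Ranks of Mrpl14 and Mrpl52 differ by less than their spread over libraries. The lowest were Mrpl48 (3.55) and Mrpl47 (4.73) of the large and Mrps10 (5.22) and Mrps18b (5.77) of the small subunit. Of these 9 apart from Mrps21, only Mrpl14 rose and Mrps18b fell. Mrpl2, which also rose, came next among large-subunit genes at 70.5 FPKM, below Mrpl52 by less than the spread over libraries. Across the 77 members, Spearman's rho of the log2 fold change with the mean level was 0.01, a description across genes measured in the same libraries.

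Mrpl53 had 0 counts in all 6 libraries, which allows at most 0.182 to 0.234 CPM (3 counts in a library, counting error only), and was not tested. Together 2 other genes overlap 88.0% of its exon bases. The one with the largest overlap, the same-strand gene Gm42688, had 25 to 49 counts per library. The sources used here do not state how shared bases were counted, so this 0 need not be the level of Mrpl53.

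The balance of the subunits was described within each library as the ratio of summed large- to small-subunit FPKM. It was 2.27, 2.14 and 2.16 in Gel/S and 2.07, 2.08 and 2.07 in C/D. The C/D values were lower and nearly identical, a difference of -0.08 on the log2 scale with a pooled SD of 0.03. A single gene accounted for it in the sum: with Mrps21 left out, a choice made after the values were seen, the ratio was 2.84, 2.85 and 2.84 in Gel/S and 2.90, 2.80 and 2.87 in C/D, and the difference was 0.01.

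Gene length moved with the change across all tested genes but not in the same way among members. Spearman's rho between log2 fold change and gene length was -0.21 over all 11708 tested genes and 0.07 over the 77 members, again across genes of the same libraries. Members under 1500 bases (21) had a median of 0.21, where all tested genes of that length had 0.26. Members from 1500 to under 3000 bases (27) had 0.06 and all such genes 0.03. Members of 3000 bases or more (29) had 0.26 and all such genes -0.05. Short members therefore lay near other short genes, and long members lay above other long genes, as a description with no test.

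Genes that work with the mitochondrial ribosome were read against the same background of 27.1% of all tested genes called in either direction. Of 7 mitoribosomal proteins that go by other names, 2 are older names of Mrpl58 and Mrpl57, and 5 others were tested. Of these 5, 1 rose, Aurkaip1 of the small subunit, from 35.2, 56.6 and 50.3 FPKM in Gel/S to 61.6, 59.3 and 63.6 FPKM in C/D (log2 fold change 0.42, adjusted p = 0.0477 by edgeR, up to 0.134 without 1 library). That is 20% of the list, and its median was 0.15.

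Assembly factors and enzymes that mature the ribosomal RNA (25 tested of 26) gave 0 calls by edgeR, with 6 (24%) at an unadjusted p under 0.05, where 41.1% of all tested genes were, and log2 fold changes with a median of 0.15. The smallest p belonged to Ngrn, a factor for the large ribosomal RNA, with 15.4, 17.0 and 17.0 FPKM in Gel/S and 21.7, 19.3 and 18.3 FPKM in C/D (0.30, adjusted p = 0.0506).

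Mitochondrial translation factors (13 tested of 14) gave 2 risen, 1 fallen and a median of 0.03, so 23.1% were called, near the background. Guf1, an elongation-type GTPase related to bacterial LepA, had 4.94, 5.55 and 5.30 FPKM in Gel/S and 7.33, 6.80 and 7.33 FPKM in C/D (log2 fold change 0.49, adjusted p = 0.00257 by edgeR). Mtrf1l, a release factor, had 2.73, 3.19 and 2.66 FPKM in Gel/S and 4.76, 4.16 and 3.47 FPKM in C/D (0.57, adjusted p = 0.0175, up to 0.0808 without 1 library). Tufm, the elongation factor that delivers aminoacyl-tRNA, had 43.4, 40.8 and 43.1 FPKM in Gel/S and 32.0, 30.4 and 31.6 FPKM in C/D (-0.40, adjusted p = 0.00423). None of the 3 overlapped between groups, and the calls of Guf1 and Tufm held in every setting tried.

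The ribosomal RNAs themselves were measured in libraries made with an mRNA kit. mt-Rnr1, the small-subunit RNA, had 324, 459 and 427 FPKM in Gel/S and 422, 537 and 507 FPKM in C/D (log2 fold change 0.32, adjusted p = 0.1 by edgeR). mt-Rnr2, the large-subunit RNA, had 492, 795 and 685 FPKM in Gel/S and 740, 1071 and 1052 FPKM in C/D (0.58, adjusted p = 0.032, up to 0.135 without 1 library). The groups overlapped for both RNAs, and Gel/S 1 was the lowest library for each, as for most protein members.

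Members lay on 17 chromosomes, with 11 on chromosome 11 and 8 on chromosome 17. Head-to-head partners were protein-coding genes of the other strand that start at most 1000 bases upstream of a member's start. Genes that overlap at their starts, such as the members Mrps11 and Mrpl46, were not counted as pairs. In GENCODE M21, 18 of the 78 members (23.1%) had such a head-to-head partner, against 6.79% of all protein-coding genes and 11.8% of tested ones. In 16 head-to-head pairs both genes were tested, and in 0 pairs did both rise. Of the 16 partners 3 rose and 1 fell, where 13.1% and 14% of all tested genes did so, and nothing particular to partners is read from these counts. Partners that rose were Fau beside Mrpl49 (log2 fold change 0.33), Zfp189 beside Mrpl50 (0.49) and Zfp661 beside Mrps5 (0.60), with adjusted p of 0.0379 to 0.0459 by edgeR, none of them next to a member that passed. Ncapd2, which starts 100 bases from Mrpl51 on the other strand, fell by 0.52 on the log2 scale (adjusted p = 0.0065 by edgeR), while Mrpl51 rose by 0.35. Helq and Ppp1r10, the partners of Mrps18c and Mrps18b, had log2 fold changes of 0.23 (adjusted p = 0.263) and -0.16 (adjusted p = 0.177) by edgeR. These genes were named after their values were seen.

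In the authors' deposited table, made with a test that the sources used here do not state, adjusted p-values below 0.05 went with 10 members higher and 3 lower in C/D. All 77 tested members had a value there. Over all 21840 genes with an adjusted p in the authors' deposited table, 5.95% were higher and 8.94% lower. Those genes were not filtered by level here, while the lowest tested member had a mean of 3.55 FPKM. The 2 sets are therefore not alike in level, and no excess of members is read from these shares. Of the 19 members called by edgeR, 12 were called in the same direction in the authors' deposited table.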

How the data were processed

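RNA of RAW264.7 cells was sequenced with a SMARTER mRNA-Seq kit, per the labels, in 3 Gel/S and 3 C/D libraries, grouped by their titles. The deposited counts are the authors' raw counts per gene, per the file headers. The deposited FPKM values are the authors' counts per kilobase of gene length and scaled library total, and the library total they imply is 0.976 to 1.02 times the sum of counts. The deposited log2 fold changes, computed by the authors with C/D as denominator, were turned in sign here. The deposited p-values are the authors' own. Per the submitters' processing notes the build was GRCm38, also called mm10. Aligner, counter and strandedness: not given in the sources used here.

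A total of 27 symbols turned into dates were restored from gene IDs, and counts of 100 repeated symbols were summed. Genes with a mean of at least 1 FPKM were tested with edgeR 4.0.16 (quasi-likelihood, robust, TMM factors, group only, Benjamini-Hochberg, threshold 0.05) in R 4.3.3. Standard errors divide the size of the log2 fold change by the root of its F statistic. log2 CPM used a prior count of 2. Alternatives used DESeq2 1.42.0 and limma 3.58.1. The fits were tested on simulated data. Named were up to 8 members with the highest and 8 with the lowest changes among those passed, the level extremes of each subunit, stalk, anchor, decoding and S18 proteins, and the members of other lists with the smallest p. Members and lists were chosen with earlier results of these data known. Coordinates come from GENCODE M21, where 73 of 78 members match the deposited ones. Start-site windows come from RefSeq, and protein sequences were not used here.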

Additional observations from a re-analysis of the deposited data

How the results depend on the processing

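The number of members that rose was 17 in the reported fit and 15 to 18 with DESeq2 size factors, DESeq2, no filter on low values or limma on log2 CPM without length correction, the last chosen after seeing the data. It was 4 by limma on log2(FPKM + 1), 4 on log2(FPKM + 0.1), 3 on log2(TPM + 1) and 11 after length correction, and the cause was not tested. In the first 3 of these the share of risen members (5.19%, 5.19% and 3.90%) was below that of all tested genes (9.08%, 8.89% and 5.59%), opposite to the reported fit, and after length correction it was 14.3% against 13.1%. The number that fell was 2, 3 with no filter, on log2(FPKM + 1), on log2(FPKM + 0.1) and after length correction, and 4 on log2(TPM + 1). Leaving out 1 library gave 4 to 34 risen and 1 to 3 fallen members. TPM moved the median of all tested genes to -0.12 and that of members to 0.07, a gap of 0.19 as in the reported fit (0.19), and split all calls into 654 higher and 1550 lower, against 1539 and 1637. The gap was 0.08 with no filter and 0.15 after length correction. The medians of both subunits stayed above 0 under every setting, at 0.07 to 0.30.

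Replicate numbers did not pair the libraries (correlations of same-numbered deviations of -0.06, -0.06 and 0.05). With a replicate block 12 members rose and 2 fell, with medians of 0.20 for the large and 0.21 for the small subunit.

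The large-to-small difference of -0.08 was -0.031 with summed counts, 0.006227 with members weighted equally and 0.006412 without Mrps21, so it turned sign under the last 2. With summed counts every C/D library stayed below every Gel/S library. Leaving out 1 library gave -0.10 to -0.05.

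Of 615 values of 41 single genes under alternatives, 17 changed sign, all of genes that did not pass, 132 lost and 17 gained a call. Mrpl11 was -0.0005812 with DESeq2 size factors, -0.0005662 with DESeq2, -0.045 without a filter, -0.032 on log2(FPKM + 1), -0.033 on log2(FPKM + 0.1), -0.12 on log2(TPM + 1) and -0.10 to 0.071 without 1 library. On log2(TPM + 1) Mrpl45 was -0.011 and Mrps34 was -0.081. After length correction Mrps18a was 0.074. Without 1 library Mrps12 ranged from -0.20 to 0.032, Mrps18a from -0.13 to 0.060, Mrps23 from -0.14 to 0.021 and Mrps34 from -0.077 to 0.16. With 3 libraries a group and changes under 2-fold, many members lie near the threshold.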

Other observations

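Processed pseudogenes of the family were counted as well. Mrpl48-ps had 5.02, 8.38 and 13.3 FPKM in Gel/S and 14.5, 8.6 and 13.8 FPKM in C/D, above the FPKM of Mrpl48 itself in every library. Counts went the other way, with 51 to 132 per library for Mrpl48-ps and 370 to 529 for Mrpl48. Their gene lengths are 636 and 8152 bases. Mrpl23-ps1 had 4.21, 4.06 and 5.99 FPKM in Gel/S and 2.52, 10.6 and 6.42 FPKM in C/D. Neither passed the test, with adjusted p of 0.23 and 0.334 by edgeR, and both groups overlapped. Mrps36-ps1 and Mrps36-ps2 were below 3 FPKM in every library, and Mrps36-ps3 had 0 counts in all 6. Reads shared between a pseudogene and its parent may be split by the counting, so the levels of Mrpl48, Mrpl23 and Mrps36 are uncertain to that degree.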
